A study of Bos taurus with 15 samples.

Results

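Serpins are a superfamily of proteins that mostly act as suicide inhibitors of serine proteases: the protease cuts an exposed loop of the serpin and is trapped as a covalent complex. In mammals they are sorted by sequence into clades A to I. Clade A and the single members of clades C and D are best known as plasma inhibitors made by the liver, and clade B holds the intracellular ov-serpins. The other clades include pigment epithelium-derived factor (PEDF), the C1 inhibitor of complement and the collagen chaperone HSP47. In adipose tissue, serpins are known as adipokines (PEDF and vaspin) and as regulators of the matrix around the adipocytes.

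The serpins were taken as every gene whose name starts with SERPIN in all 6 tables of the study, and 34 of 13896 genes met this rule. The tissue was subcutaneous fat, biopsied at the dewlap of primiparous Holstein cows and sequenced as stranded total RNA after removal of ribosomal RNA. There were 5 groups of 3 libraries: 1 group at -4 weeks peripartum (wkpp), before the diets started, and 4 groups at 1 and 16 wkpp. The cows with severe negative energy balance (SNEB) were fed the low energy (LE) diet and those with moderate negative energy balance (MNEB) the high energy (HE) diet, so that diet and energy balance cannot be told apart. The cows sequenced were those with the most extreme energy balance at 1 wkpp. The same libraries at -4 wkpp were compared with both groups at 1 wkpp, and each postpartum group entered 2 or 3 comparisons, so the comparisons share libraries. The libraries at -4 wkpp carry no NEB status. A comparison named -4 vs 1 wkpp in MNEB or in SNEB therefore sets this shared group against that NEB group at 1 wkpp. It does not show a change within the same cows.

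The deposited tables hold means over 6 libraries, from which the whole reads of each library were worked out. Libraries are therefore known by group only, and within a group they are numbered here from the highest to the lowest size factor of the exon reads. Values below are reads divided by the size factor of the library (normalised read counts). They are given for reads on exons and, separately, for reads on the entire gene, and they are not corrected for gene length. Reads on exons were uneven: the MNEB libraries held 1987040 to 7462583 exon reads and the other 9 libraries 8015342 to 14749457. The paper lists similar total reads for all groups, but a lower aligned share in each MNEB library than in any other. The part of this in the results was not tested. Spike-in RNAs took 2.83 to 19.4% of the exon reads in the MNEB libraries and 0.179 to 1.53% in the others, and their part in the results was not tested. In addition, 5 libraries had reads on more genes than all others (12519 to 13125 genes with an exon read, against 11181 to 12206): -4 wkpp library 3, MNEB 1 wkpp libraries 2 and 3, MNEB 16 wkpp library 1 and SNEB 16 wkpp library 1. The adipocyte markers were present in every library, at 5180.5 to 11173 exon reads per 1000000 reads on genes (RPM), summed over 5 genes in the -4 wkpp and SNEB libraries and at 1146 to 6657 in the MNEB libraries.

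Of the 34 serpins, 12 had exon reads in all 15 libraries, among them SERPINA5, 4 members of clade B, SERPINC1, SERPINE2, SERPINF1, SERPING1, SERPINH1 and SERPINI1. At the other end, 3 of the 14 members of clade A had no exon read in any library. A serpin was tested in a comparison when at least 10 reads lay on it over the 6 libraries in both analyses. By this filter 16 serpins were tested in all 6 comparisons, 6 in some of them and 12 in none. The 12 never tested were 9 members of clade A and 3 of clade B (SERPINB4, SERPINB7 and SERPINB10).

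A gene was called when its adjusted p (limma voom with Benjamini-Hochberg adjustment over all genes tested) was below 0.01 with exon reads and with whole gene reads, with the same sign. By this rule 2 of 21 serpins tested were called in -4 vs 1 wkpp in MNEB, SERPINF1 and SERPING1, beside 1.01% of all genes tested. Both were higher at -4 wkpp, beside 0.689% of all genes called in that direction. At an adjusted p below 0.05 in both analyses there were 4 (SERPINB9, SERPINF1, SERPING1 and SERPINH1), beside 8.14% of all genes, and the same 4 were below an unadjusted 0.05, beside 22% of all genes. The comparison of SNEB with MNEB at 16 wkpp called 1 of 16 serpins, SERPING1, beside 3.09% of all genes. It was higher in SNEB, beside 0.93% of all genes in that direction. At 0.05 there were 2 (SERPINF1 and SERPING1), beside 10.8% of all genes, and 4 below an unadjusted 0.05 (SERPINB9, SERPINF1 and SERPING1 among them), beside 23.7%.

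No serpin was called by limma voom or limma trend in the other 4 comparisons. In -4 vs 1 wkpp in SNEB, 0 of 19 were called beside 0.034% of all genes (0.502% at 0.05). There, SERPINF1 and SERPINH1 had an unadjusted p below 0.05 in both analyses, beside 9.35% of all genes, and both were higher at -4 wkpp, beside 5.64% in that direction. SERPINA1 and SERPINB5 were also below 0.05, but they reached 10 reads only through the -4 wkpp libraries, so that the filter fixed their direction and they are not set against these shares. Between SNEB and MNEB at 1 wkpp, 0 of 17 serpins and 0% of all genes were called (0.453% at 0.05), and 3 serpins were below the unadjusted 0.05 (SERPINB9, SERPINF1 and SERPING1), beside 16.8% of all genes. From 1 to 16 wkpp in MNEB, 0 of 18 serpins and 0% of all genes were called. Of these, 2 (SERPINH1 among them) were below the unadjusted 0.05 beside 6.64% of all genes, and both were lower at 1 wkpp, beside 4.34% in that direction. From 1 to 16 wkpp in SNEB, 0 of 16 serpins and 0% of all genes were called, and 0 serpins were below the unadjusted 0.05 beside 4.29% of all genes.

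Groups were also compared by whether all 3 libraries of one lay on the same side of all 3 of the other, in both analyses. In -4 vs 1 wkpp in MNEB this held for SERPINB8, SERPINF1, SERPING1 and SERPINH1 at the higher side (13.3% of all genes) and for SERPINB9 at the lower side (14.3%). In SNEB it held for SERPINF1 at the higher side (6.58%) and again for SERPINB9 at the lower side (4.89%). For SNEB over MNEB it held at 1 wkpp for SERPINB8, SERPINF1 and SERPING1 (11.5%). SERPINA1 and SERPINB5 in -4 vs 1 wkpp in SNEB, and SERPINB2 in SNEB vs MNEB at 1 wkpp, are not counted here, since each reached 10 reads only through the group in which it was higher. SERPINB2 had 2, 10 and 7 exon reads in MNEB and 0, 3 and 0 in SNEB at 1 wkpp. At 16 wkpp, for SNEB over MNEB, it held for SERPINF1 and SERPING1 (13.6%) and for 0 serpins at the lower side (14.5%). For 1 over 16 wkpp in MNEB it held for 0 serpins at the higher side (4.82%) and for 2 serpins, SERPING1 among them, at the lower side (6.18%). In SNEB it held for 0 serpins at either side (4.67% and 2.14%).

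**Figure D1:**
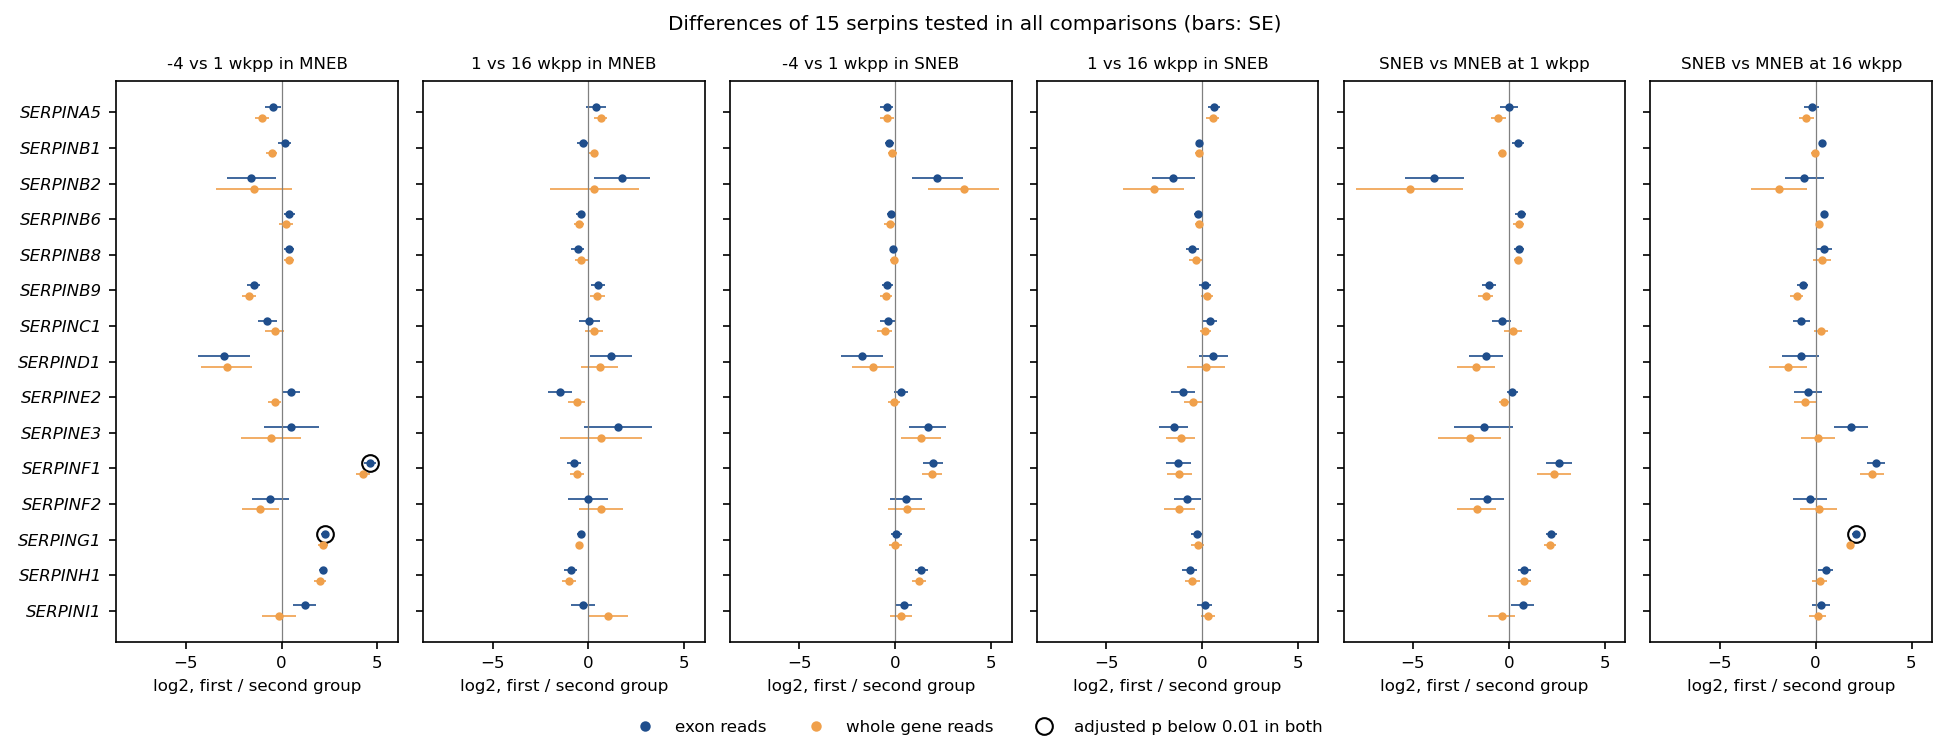
log2 differences (first over second group, x axis) with their SE for 15 serpins tested in all 6 comparisons, from exon reads (blue) and whole gene reads (orange), with called serpins circled. SERPINF1 (4.60) and SERPING1 (2.28) are circled for -4 vs 1 wkpp in MNEB, and SERPING1 (2.08) for SNEB vs MNEB at 16 wkpp.

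Clade F holds SERPINF1, which encodes PEDF, a secreted non-inhibitory serpin with anti-angiogenic activity that adipocytes and fibroblasts release, and SERPINF2, the antiplasmin of plasma. Exon counts of SERPINF1 were 3831, 3180.3 and 2929.5 in the 3 libraries at -4 wkpp. At 1 wkpp they were 153, 78.4 and 202 in MNEB and 688, 2091 and 408 in SNEB. At 16 wkpp they were 179, 242 and 301 in MNEB and 1542, 1107 and 4329.6 in SNEB. All 6 MNEB libraries lay below all 9 others, while the SNEB libraries spread widely, and 1 of the 3 at 16 wkpp was above the libraries at -4 wkpp and the others below them.

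The difference of SERPINF1 between the libraries at -4 wkpp and MNEB at 1 wkpp was the largest of any serpin called. The log2 difference (-4 over 1 wkpp) was 4.60 ± 0.32 (SE) with exon reads (adjusted p = 2.0e-05) and 4.26 ± 0.36 with whole gene reads (adjusted p = 0.0057, limma voom), a fold of 24.3 and 19.2. Without 1 library at a time the exon log2 difference was between 4.30 and 4.80, and the whole gene adjusted p rose above 0.01 for each library left out except MNEB 1 wkpp library 1. In SNEB the same libraries at -4 wkpp were 1.97 ± 0.50 above 1 wkpp (adjusted p = 0.099 with exon reads and 0.21 with whole gene reads, limma voom), with no overlap between the groups. Without SNEB 1 wkpp library 2, the highest of that group, this difference was called, at 2.63.

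Between the NEB groups SERPINF1 was higher in every SNEB library than in every MNEB library at both times. The log2 difference was 2.63 ± 0.68 at 1 wkpp (adjusted p = 0.035 with exon and 0.22 with whole gene reads, limma voom). It was between 1.98 and 3.15 without 1 library at a time, lowest without SNEB 1 wkpp library 2. At 16 wkpp it was 3.15 ± 0.49 (adjusted p = 0.0025 with exon and 0.021 with whole gene reads, limma voom), so that it passed 0.01 only with exon reads. Without 1 library at a time it was between 2.55 and 3.56, lowest without SNEB 16 wkpp library 3, and the exon adjusted p was 0.029 without MNEB 16 wkpp library 1 and 0.0113 without library 3 (limma voom). From 1 to 16 wkpp the SERPINF1 counts overlapped in both NEB groups. SERPINF2 had few reads, at most 14 exon reads in a library, and no log2 difference of it passed the test.

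Clade G is SERPING1 alone, the C1 inhibitor, which blocks C1r and C1s of complement and also plasma kallikrein and factor XIIa. Its exon counts were 10117, 10668 and 7545 at -4 wkpp. In MNEB they were 1867, 1854 and 2117 at 1 wkpp and 3027, 2298 and 2375 at 16 wkpp. In SNEB they were 12124, 10762 and 5414 at 1 wkpp and 11702, 9107 and 11210.1 at 16 wkpp. The SNEB libraries lay in and around the range at -4 wkpp and all MNEB libraries below it, with no overlap.

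The level of SERPING1 at -4 wkpp exceeded that of MNEB at 1 wkpp by 2.28 ± 0.21 (log2, exon reads), a fold of 4.87 (adjusted p = 0.00011 with exon and 0.0095 with whole gene reads, limma voom). The whole gene value lay close to the threshold: without any 1 library, each in turn, it ranged from 0.0127 to 0.071. The corresponding difference in SNEB was 0.07 ± 0.31 (adjusted p = 0.95, limma voom), a value whose sign changed with the library left out and with the scaling. Between the NEB groups SERPING1 was 2.08 ± 0.20 higher in SNEB at 16 wkpp, a fold of 4.23 (adjusted p = 0.00054 with exon and 0.0021 with whole gene reads, limma voom). This call was lost only without MNEB 16 wkpp library 3, where the whole gene adjusted p was 0.0103. At 1 wkpp the difference was 2.22 ± 0.30, past 0.01 with exon reads (adjusted p = 0.0075) and not with whole gene reads (adjusted p = 0.052, limma voom). The libraries of MNEB at 1 wkpp all lay below those at 16 wkpp, at a log2 difference (1 over 16 wkpp) of -0.39 ± 0.21 that did not pass the test (adjusted p = 0.50, limma voom). It was -0.28 ± 0.31 in SNEB, and the difference between these changes was 0.13 ± 0.36 (adjusted p = 0.99, limma voom on 12 libraries).

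**Figure D2:**
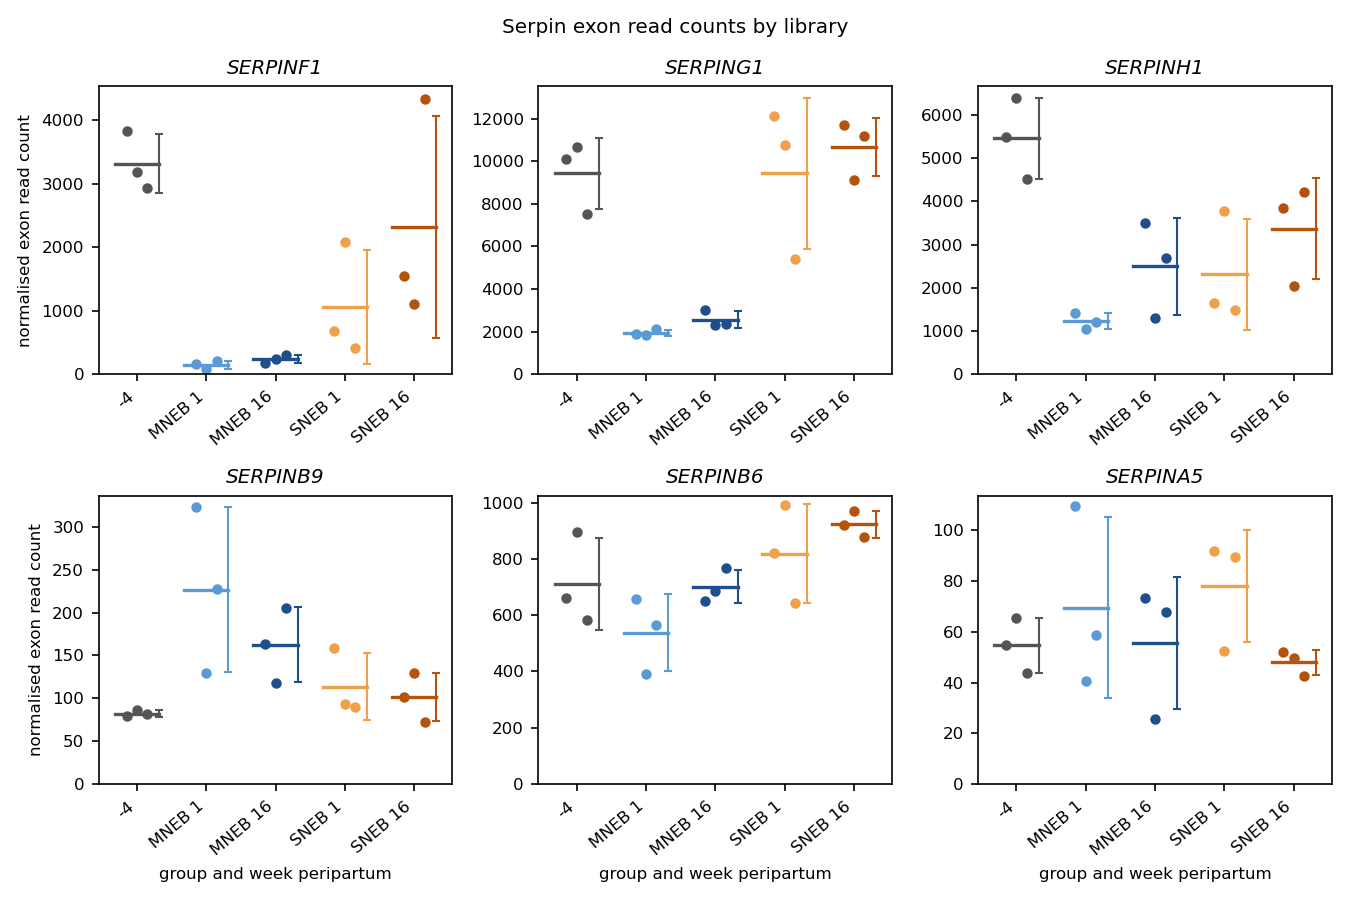
Normalised exon read counts (y axis) of SERPINF1, SERPING1, SERPINH1, SERPINB9, SERPINB6 and SERPINA5 by group (x axis), with 1 point per library, the group mean as a line and the SD as a bar. SERPINF1 and SERPING1 in the 6 MNEB libraries lie below all 9 other libraries, whereas SERPINB9 is highest in MNEB at 1 wkpp (227 ± 96.8).

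Genes of the complement pathway, the proteases that the C1 inhibitor blocks among them, were followed as a list of 16 genes, all of them in the tables. At 16 wkpp, between SNEB and MNEB, 5 of 12 tested were called, beside 3.09% of all genes, all higher in SNEB (0.93% of all genes), and the median log2 difference of the 12 was 2.10 against 0.01 over all genes. Among the called genes, those of the largest differences were C3, C1S, C2 and C1R, of which C1r and C1s are the proteases of the first complement component. C1S counts were 9492, 9462 and 13344 in SNEB at 16 wkpp and 1489.8, 1941 and 1849.6 in MNEB, a log2 difference of 2.61 ± 0.21. C1R counts reached 11112, 9159 and 9981 in SNEB, against 1585, 3313 and 2643 in MNEB, a log2 difference of 2.04 ± 0.29. SERPING1, C1R and C1S differed in the same direction and with no overlap between the groups at 16 wkpp, beside 13.6% of all genes higher in SNEB without overlap. In -4 vs 1 wkpp in MNEB, 1 of 13 was called, beside 1.01% of all genes: C3, the central component of complement, higher at -4 wkpp by 2.43 ± 0.27, and the median of the list was 1.52. No gene of the list was called by limma in the other 4 comparisons.

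**Figure D3:**
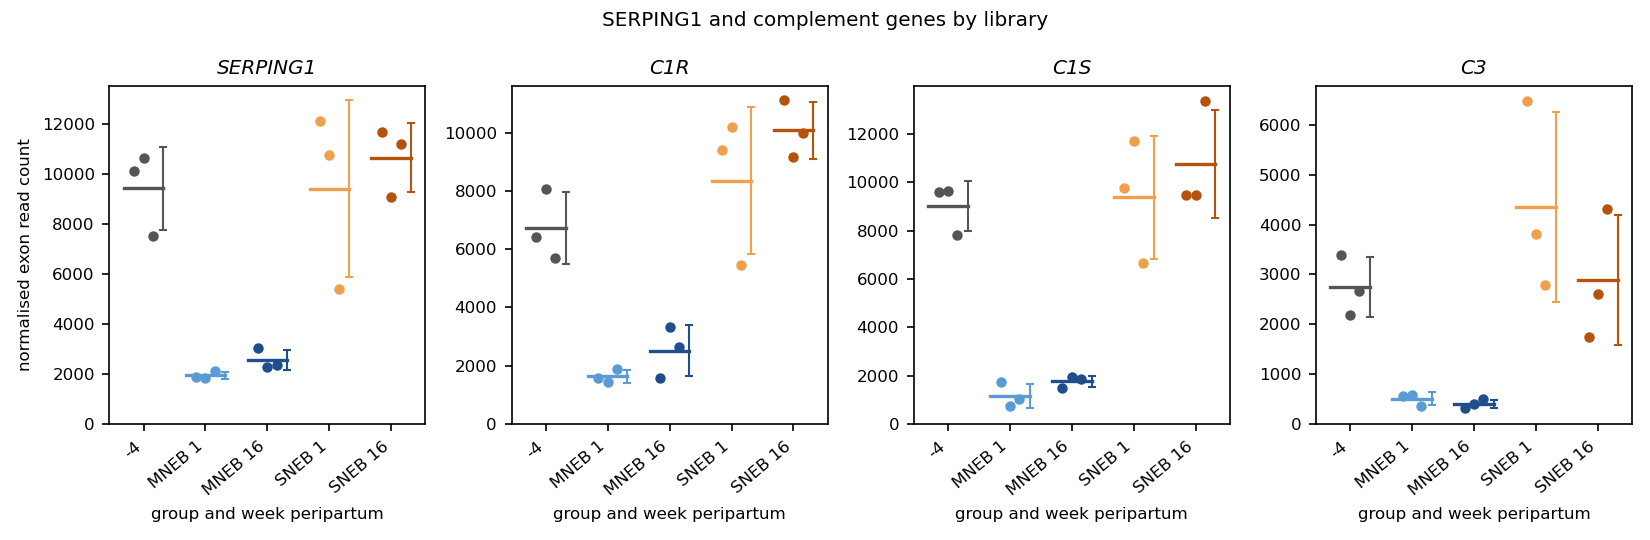
Normalised exon read counts (y axis) of SERPING1, C1R, C1S and C3 by group (x axis), with 1 point per library, the group mean as a line and the SD as a bar. In all 4 panels the MNEB libraries sit below the SNEB and -4 wkpp libraries, for example 1160.4 ± 509 for C1S in MNEB and 9368 ± 2553 in SNEB at 1 wkpp.

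Markers of several cell types of the fat moved with the same groups. Over 3 of 4 fibroblast markers (PDGFRA, DCN and LUM, the reads of COL1A1 not being recovered), the summed exon RPM were 7345 to 8803 at -4 wkpp, 894 to 2998 in the MNEB libraries and 4740 to 9929.9 in the SNEB libraries. Mast cell markers (4 of 5) were at 373 to 582 at -4 wkpp, 34.6 to 74.9 in MNEB and 160.0 to 428 in SNEB. Macrophage markers (4 of 5) were at 647 to 851 at -4 wkpp. At 1 wkpp they were at 281 to 947 in MNEB and 1043 to 1505 in SNEB, and at 16 wkpp at 261 to 294 and 1360 to 1760.5. Skeletal muscle markers summed to 9.25 to 42.5 at -4 wkpp, 162 to 554 in MNEB and 14.2 to 44.4 in SNEB, but TNNT3 alone made up most of this sum (mean 26.1 at -4 wkpp, 305 and 382 in MNEB at 1 and 16 wkpp). The other 5 were at a mean of at most 4.68 in each group. All 5 were above their -4 wkpp mean in MNEB at 1 wkpp, whereas at 16 wkpp ACTA1 and CKM were above it and MYH1, MYH2 and MB below it. Platelet and megakaryocyte markers (2 of 4, ITGA2B and PF4) were at 48.6 to 186 in the 6 MNEB libraries and 18.2 to 35.3 in the other 9. None of the markers of fibroblasts and mast cells was at 0 in any group. The part of these cell types in the differences of SERPINF1, SERPING1 and the complement genes was not tested. In these bulk samples, fewer cells of a type and less RNA per cell cannot be told apart.

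Clade H is SERPINH1, the chaperone HSP47, which binds procollagen in the endoplasmic reticulum and inhibits no protease. Its exon counts were 5495, 6382 and 4508 at -4 wkpp. At 1 wkpp they were 1424, 1054 and 1217 in MNEB and 1655, 3779.9 and 1489 in SNEB. At 16 wkpp they were 3499, 1298 and 2681 in MNEB and 3849, 2032 and 4225 in SNEB. The libraries at -4 wkpp were all above those at 1 wkpp in both NEB groups with exon reads, and the NEB groups overlapped at 16 wkpp.

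SERPINH1 was 2.16 ± 0.23 higher at -4 wkpp than in MNEB at 1 wkpp (log2, exon reads), a fold of 4.46, with an adjusted p of 0.00016 with exon reads and of 0.013 with whole gene reads (limma voom). It was thus not called, and was called under limma trend, under scaling to the total count and with all 15 libraries in one fit. It was not called without any 1 library, each in turn (whole gene adjusted p from 0.013 to 0.090, limma voom). With no filter beyond 1 read it was also not called (0.015, limma voom). Without the 5 libraries with the most genes detected, which leaves a lone library in MNEB at 1 wkpp, the exon log2 difference was 2.05. In SNEB the difference was 1.36 ± 0.34 (adjusted p = 0.093 with exon reads, limma voom). Between SNEB and MNEB it was 0.80 ± 0.34 at 1 wkpp and 0.52 ± 0.39 at 16 wkpp, neither past the threshold. Without 1 library at a time these ranged from 0.38 to 1.05 and from 0.097 to 0.85. The whole gene value at 16 wkpp (0.21) was -0.18 without MNEB 16 wkpp library 2.

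The list of collagen chains and collagen-folding genes held 26 names, of which 20 were in the tables and the reads of 3 (COL1A1, COL1A2 and COL3A1) could not be recovered. In -4 vs 1 wkpp in MNEB, 2 of 17 tested were called, beside 1.01% of all genes (0.689% higher at -4 wkpp): SPARC, a collagen-binding matrix protein, and LOX, which crosslinks collagen. SPARC was higher at -4 wkpp by 2.95 ± 0.24 and LOX by 2.48 ± 0.23 (log2, exon reads), and the median of the list was 1.27 against -0.02 over all genes. In SNEB vs MNEB at 16 wkpp, LOX was the only 1 of 17 called, beside 3.09% of all genes, 2.22 ± 0.29 higher in SNEB (0.93% of all genes), with a list median of 0.36. No other comparison had a called gene of this list by limma. The fibroblast markers, at 7345 to 8803 exon RPM at -4 wkpp and 894 to 1678 in MNEB at 1 wkpp, moved with SERPINH1 and this list, and their part in these differences was not tested.

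Clade E holds SERPINE2, the protease nexin of the extracellular matrix, and SERPINE3, which is less studied. Exon counts of SERPINE2 were uneven within groups, at 460, 100.2 and 471 in MNEB and 672, 162 and 108 in SNEB at 16 wkpp. Its exon and whole gene log2 differences had opposite signs in 3 of the 6 comparisons, and no difference of it passed the test. SERPINE3 had at most 12 exon reads in a library.

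Among 17 genes of plasminogen activation and of the anticoagulant surface, 16 were in the tables and 14 were tested. At 16 wkpp, between SNEB and MNEB, 2 of 14 were called, beside 3.09% of all genes, both higher in SNEB (0.93% of all genes): THBD, the endothelial thrombin receptor thrombomodulin (1.45 ± 0.17), and PROS1, the cofactor protein S (1.46 ± 0.20). Neither is a plasminogen activator. The median of the list was 0.77 there and 1.10 at 1 wkpp, where no gene was called. PLAT, the tissue plasminogen activator, had a difference of 1.02 ± 0.30 at 1 wkpp (log2, SNEB over MNEB, adjusted p = 0.054 with exon reads, limma voom). In the other 5 comparisons no gene of the list was called by limma.

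The study also assayed SERPINF1 by RT-qPCR, and its primers are shown to identify the transcript assayed, although the RT-qPCR values were not used here. Each primer is written 5′ to 3′.
SERPINF1 forward: gttttacggtacggcttgga
SERPINF1 reverse: gacttcgtgagttcgccttc

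Clade B had 9 members, of which SERPINB1, SERPINB6, SERPINB8 and SERPINB9 had exon reads in every library. SERPINB1 and SERPINB6 are inhibitors of neutrophil and other granule proteases, SERPINB8 of furin-like proteases and SERPINB9 of granzyme B. SERPINB6 had the highest mean exon count of the clade. Its counts were 660.1, 895 and 581 at -4 wkpp. In MNEB they were 658, 389 and 566 at 1 wkpp and 651, 686 and 766 at 16 wkpp. In SNEB they were 820.0, 993 and 643 at 1 wkpp and 919, 971 and 877 at 16 wkpp. No difference of SERPINB6 passed the test, and the largest exon log2 difference of SERPINB6 in any comparison was 0.61 ± 0.27 (SNEB over MNEB at 1 wkpp, adjusted p = 0.16, limma voom).

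SERPINB9 had its lowest mean at -4 wkpp. Its exon counts were 78.8, 86.7 and 81.3 at -4 wkpp. At 1 wkpp they were 323, 129.7 and 228 in MNEB and 159, 92.9 and 89.5 in SNEB. At 16 wkpp they were 163, 118 and 206 in MNEB and 102, 129.8 and 72.9 in SNEB. Every library at 1 wkpp was above every library at -4 wkpp, in both NEB groups. In -4 vs 1 wkpp in MNEB the log2 difference was -1.46 ± 0.34 with exon reads and -1.69 ± 0.38 with whole gene reads (adjusted p = 0.0102 and 0.040, limma voom), which passed 0.05 and not 0.01 in both analyses. In SNEB it was -0.42 ± 0.29 (adjusted p = 0.59, limma voom). Endothelial markers (4 of 4), which were at 2253 to 2729 exon RPM at -4 wkpp, were at 4079 to 8337 in MNEB and 3685 to 4811 in SNEB at 1 wkpp. The platelet and megakaryocyte markers were at 18.2 to 31.1 at -4 wkpp, 64.4 to 186 in MNEB and 27.0 to 35.3 in SNEB at 1 wkpp. The part of either in the SERPINB9 difference was not tested.

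Of 14 granule proteases of mast cells, neutrophils and lymphocytes, some of which clade B members inhibit, 7 were in the tables and between 4 and 7 were tested. At 16 wkpp, between SNEB and MNEB, 1 of 6 was called, beside 3.09% of all genes. It was the mast cell carboxypeptidase CPA3, a metalloprotease, with counts of 655, 407 and 554 in SNEB and 21.5, 23.1 and 51.5 in MNEB (log2 difference 4.24 ± 0.44). Of the cysteine cathepsins, legumain, caspases and cystatins, 13 of 16 were in the tables and tested. In SNEB vs MNEB at 16 wkpp, 3 of 13 were called, beside 3.09% of all genes, all higher in SNEB (0.93% of all genes): the cathepsins CTSB (1.63 ± 0.19) and CTSS (2.35 ± 0.24) and the cathepsin inhibitor CST3 (2.24 ± 0.24), and the median of the list was 1.604. The comparison of -4 with 1 wkpp in MNEB called 1 of 13, beside 1.01% of all genes, CST3, at 3.21 ± 0.25. Macrophage markers (4 of 5) were at 1360 to 1760.5 exon RPM in SNEB and 261 to 294 in MNEB at 16 wkpp.

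The plasma serpins of clades A, C and D had few reads, and hepatocyte markers (6 of 7 had reads) summed to 24.6 to 121 exon RPM in a library. APOA1 (group means 18.0 to 54.7) and TTR (15.7 to 40.2) made up most of this sum, while ALB was at 0.34 to 2.21, FGA at 0 to 0.59 and FGB at 1.29 to 4.49. SERPINA5, the protein C inhibitor, was the only member of clade A with exon reads in all libraries. Its exon counts were 54.7, 65.4 and 43.9 at -4 wkpp. In MNEB they were 109, 40.5 and 58.8 at 1 wkpp and 73.4, 25.7 and 67.7 at 16 wkpp. In SNEB they were 91.9, 52.6 and 89.5 at 1 wkpp and 51.9, 49.6 and 42.6 at 16 wkpp. The groups overlapped in every comparison with exon reads but for 1 vs 16 wkpp in SNEB, where each library at 1 wkpp was above each at 16 wkpp.

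SERPINC1 (antithrombin), the only member of clade C, had exon counts between 15.4 and 56.9 in all 15 libraries, with overlap between the groups of all 6 comparisons. SERPIND1 (heparin cofactor II), the only member of clade D, had 0 to 13 exon reads in a library. In clade I, SERPINI1 (neuroserpin, an inhibitor of tissue plasminogen activator in the nervous system) had exon counts of 36.8, 21.99 and 42.0 at -4 wkpp and of 11.5, 16.2 and 14.7 in MNEB at 1 wkpp. With whole gene reads these were 170.2, 57.8 and 286 and 67.5, 436 and 463, so that the analyses differed in direction: the log2 difference was 1.20 ± 0.62 with exon reads and -0.13 ± 0.88 with whole gene reads. The whole gene counts of MNEB 1 wkpp libraries 2 and 3 stood above those of the other 13 libraries.

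The other 22 serpins, those without exon reads in every library, differed between libraries of the same group. They include SERPINA1 (alpha-1-antitrypsin), SERPINA12 (vaspin), SERPINA14, SERPINB2 and SERPINB5 (maspin). Whole gene reads on them were 185 to 491 in the 5 libraries with the most genes detected and 3 to 111 in the other 10. This was so although MNEB 1 wkpp libraries 2 and 3 were among those with the fewest reads on genes. In whole gene RPM, these were 8.94 to 92.4 against 0.547 to 7.35. With exon reads the contrast was smaller, at 3.19 to 25.2 against 0.639 to 4.23 exon RPM, and the ranges overlapped. SERPINB2, for example, had 64 whole gene reads in -4 wkpp library 3 and 5 and 3 in libraries 1 and 2 of that group.

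**Figure D4:**
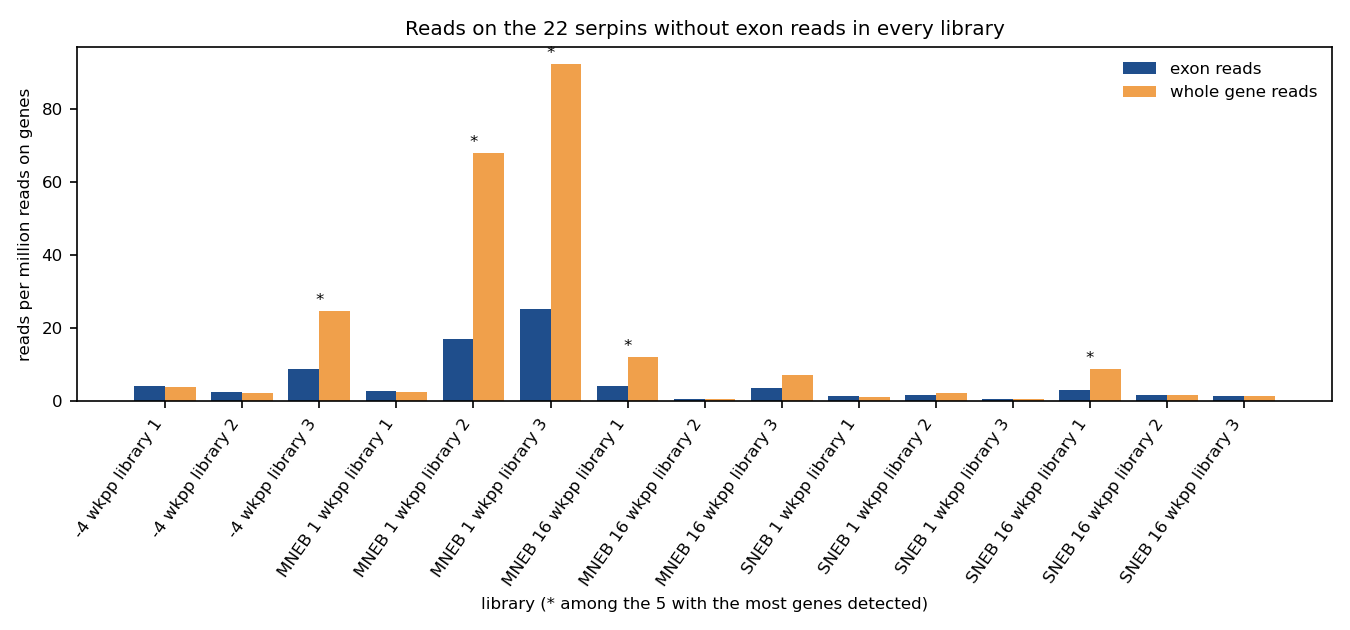
Exon (blue) and whole gene (orange) RPM (y axis) on the 22 serpins without exon reads in every library, per library (x axis). The bars of MNEB 1 wkpp libraries 2 and 3 reach 68.1 and 92.4 whole gene RPM, and 3 further libraries marked with a star lie between 8.94 and 24.8.

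SERPINA1 and SERPINB5 were tested between -4 and 1 wkpp in SNEB only because of their reads at -4 wkpp, so their values are given as a description. SERPINA1 had 9, 8 and 1 exon reads at -4 wkpp and 0 in all 3 libraries of SNEB at 1 wkpp. In MNEB at 1 wkpp it had 0, 4 and 1, and its mean normalised count there was above that at -4 wkpp with exon reads (4.83 against 3.67) and with whole gene reads (19.4 against 5.22). The fitted log2 differences (-4 over 1 wkpp) had the opposite sign to these means, at 0.85 ± 1.39 and 0.42 ± 1.71. SERPINB5, a serpin of epithelial cells, had 24, 11 and 8 exon reads at -4 wkpp and 0, 1 and 0 in SNEB at 1 wkpp. In MNEB at 1 wkpp it had 0, 1 and 3, with a mean normalised count below that at -4 wkpp with exon reads (4.58 against 9.33) and above it with whole gene reads (47.1 against 19.3). Its fitted log2 differences were 2.32 ± 1.23 and 1.65 ± 1.73, so that the whole gene mean and fit differed in sign. The reads in MNEB at 1 wkpp lay in libraries 2 and 3, which are among the 5 with the most genes detected. Neither serpin was called in SNEB (adjusted p = 0.14 for SERPINA1 and 0.062 for SERPINB5 with exon reads, limma voom).

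Of the keratinocyte markers, 4 had lower means in SNEB at 1 wkpp than at -4 wkpp, as SERPINB5 had. KRT5 was at a mean of 1.46 exon RPM at -4 wkpp and 0.11 in SNEB at 1 wkpp, and DSG1 at 4.39 and 0.025. KRT14 was at 0.75 and 0, and KRT10 at 1.28 and 0.43. DSP, which made up most of the sum of the 5 markers measured, was at 65.0 and 77.8. Their part in the SERPINB5 difference was not tested.

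In the RefSeq gene order of the assembly ARS-UCD2.0, which is not the build of the tables, 31 of the 34 serpins had an entry under their symbol. There, 9 members of clade A lie side by side in a run of 10 serpin genes that holds SERPINA1, SERPINA5 and SERPINA12, and SERPINB9 lies next to SERPINB1. Within the run, SERPINA5 alone had exon reads in all libraries. SERPINA3, SERPINA3-7 and SERPINB4 had exon reads but no whole gene read in any library. How reads were shared between near-identical copies was not tested, and the counts of these 3 genes and of the other SERPINA3 copies are uncertain.

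Across the serpins tested, the median exon log2 difference was 0.41 in -4 vs 1 wkpp in MNEB against -0.02 over all genes, but -0.36 with whole gene reads. Between SNEB and MNEB at 16 wkpp the median was 0.03 against 0.01 over all genes, with 8 serpins above 0 and 8 below. The difference between the changes from 1 to 16 wkpp in SNEB and in MNEB was called for 0 of 21 serpins and 0% of all genes (limma voom), and 0 serpins had an unadjusted p below 0.05 in both analyses, beside 2.5% of all genes.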

How the data were processed

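RNA sequencing of 15 libraries in 5 groups of 3 was processed by the authors with Cutadapt 1.3, TopHat2 on the bosTau8 genome, htseq-count and DESeq2. The 6 deposited tables hold, per gene, the mean of the normalised counts of 6 libraries with exon and with entire gene reads, which the authors made by dividing the counts by size factors. The authors' log2 fold changes, standard errors, Wald statistics and p-values in these tables were not used, and 0 columns held values of samples outside the series.

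The size factor of each library was read mainly from genes with reads in 1 group only, whose smallest values are those of 1 read, and for a few libraries from genes shown by another table to be at 0 in the second group. The whole reads of the 15 libraries were then solved per gene from the 6 means, written to 15 digits, by lattice reduction. A unique solution was found for 13891 of 13896 genes in both analyses, and the other 5 genes, all of very high counts, were left out, as were the spike-ins. Size factors recomputed from the reads differed from those of the tables by at most 0.0795%. Exon and whole gene libraries of a group were matched by the order in which most genes had no more exon than whole gene reads (99.02 to 99.05% of 8884 genes, against 90.71% at most in the next order).

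Each comparison was fitted with limma 3.58.1 (voom, R 4.3.3) on its 6 libraries with the size factors of its table, for genes with at least 10 reads, with Benjamini-Hochberg adjustment over all genes tested. Values per library use median-ratio factors over the 15 libraries. Genes were called as in the report. Interaction terms used the 12 libraries at 1 and 16 wkpp. The labels do not say whether the libraries of a group come from separate cows, but the methods name 3 cows per group. The same cows may have been sampled at several times, which the fits do not take into account. The members and lists were chosen with earlier results of these data known. Values per library were given for serpins called at least once and for the serpin of highest mean exon count in each clade, and, of each list, for at most 4 called genes a comparison. Some items are not reported here. Other genes that the text singles out were chosen after their values were seen. The recovery of reads and the limma voom fits of the 6 comparisons were tested on simulated data, and the other steps were not. Python 3.11.15 was used.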

Additional observations from a re-analysis of the deposited data

How the results depend on the processing

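No paired analysis was possible because the means in the tables carry no replicate number of the single libraries. In -4 vs 1 wkpp in MNEB, where 2 serpins were called, 4 were called at an adjusted p of 0.05 and with all 15 libraries in one fit, and 1 (SERPINF1) with no filter beyond 1 read. Leaving out 1 library at a time gave 0 to 1 there. It gave 0 to 1 in -4 vs 1 wkpp in SNEB (SERPINF1 without SNEB 1 wkpp library 2). Between SNEB and MNEB at 1 wkpp it gave 0 to 2 (SERPINB2 and SERPING1 without MNEB 1 wkpp library 1). Of these, SERPINB2 passed the read filter only through the MNEB libraries, so that the filter fixed its direction. Only SERPING1 can be read as a call there. At 16 wkpp, leaving out 1 library at a time gave 0 to 1 (0 without MNEB 16 wkpp library 3). At 1 wkpp, 1 serpin (SERPING1) was called with exon reads alone and with all 15 libraries in one fit. At 16 wkpp, 2 were called with exon reads alone, at an adjusted p of 0.05 and under limma trend with either pseudocount. In 1 vs 16 wkpp, MNEB and SNEB, and in the test of the difference between these changes, 0 serpins were called under each alternative run. The causes of these differences were not tested.

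The difference of SERPING1 for -4 vs 1 wkpp in SNEB (0.07) was -0.033 with scaling to the total count and -0.30 to 0.29 without 1 library. For 1 vs 16 wkpp in SNEB (-0.28) it was -0.51 to 0.088 without 1 library, above 0 without SNEB 1 wkpp library 3. Scaling to the total count moved the median exon log2 difference of all genes by -0.15 in -4 vs 1 wkpp in MNEB and by -0.11 in SNEB.

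Over all genes, the 122 called in -4 vs 1 wkpp in MNEB became 68 with no filter, 1043 with all 15 libraries and 1 to 185 without 1 library. The 356 called between SNEB and MNEB at 16 wkpp became 22 to 116 without 1 library. The 0 called at 1 wkpp became 302 with all 15 libraries and 711 without MNEB 1 wkpp library 1, and the 4 called in -4 vs 1 wkpp in SNEB became 25 with all 15 libraries, 84 without SNEB 1 wkpp library 2 and 0 without each of the other 5 libraries and with scaling to the total count. Without the 5 libraries with the most genes detected, an alternative chosen after seeing the data, 3 serpins (SERPINF1, SERPING1 and SERPINH1) were called in -4 vs 1 wkpp in MNEB and 1 (SERPING1) between SNEB and MNEB at 16 wkpp, with a lone library left in MNEB at 1 wkpp that is assumed to vary like the others. The alternatives on group means were not run, since reads were recovered. At the depth of these libraries, 12 serpins were below 10 reads in one or both analyses in every comparison and were not tested.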
